A study of Mus musculus with 2 samples.

Results

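Of 80 genes with respiratory chain symbols, 66 carried an H3K27ac peak in both Gata2 KO and Gata2 f/f leukaemia cells (82.5%, against 49.1% of all genes). In 47 of these 66 the peak width in KO was within 10% of that in f/f (71.2%, against 62.1% of all genes). Outside peak-free chromosome starts 0 of 76 were marked in 1 genotype alone, which was rare among all genes too (1.22% in KO and 1.85% in f/f). The set was chosen by symbol: protein-coding genes on chromosomes 1 to 19 of the mm10 gene table whose symbols start with Ndufa, Ndufb, Ndufc, Ndufs, Ndufv, Uqcr, Cox4i, Cox5, Cox6, Cox7, Cox8 or Sdh. This gave 80 of 20665 genes. They fall into 39 genes with complex I symbols, 4 of complex II, 8 of complex III, 17 of complex IV and 12 assembly factors. The prefixes Ndufa and Sdh also catch these assembly factors (Ndufaf1 to Ndufaf8 and Sdhaf1 to Sdhaf4). Genes were assigned to complexes by symbol throughout, figures included, also Ndufa4 and Ndufa4l2.

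The libraries were 1 Gata2 KO (Gata2 -/-) and 1 Gata2 f/f, the notation for a floxed allele. Both came from MA9 cells, mouse acute myeloid leukaemia driven by the MLL-AF9 fusion, taken from the bone marrow of primary animals. Cells received Cre or the control MIT, without a statement of which library received which, and were sorted by GFP and tdTomato. Culture lasted 7 to 9 days, with SCF and the murine interleukins 3 and 6, up to the immunoprecipitation of H3K27ac, a histone mark of active promoters and enhancers. The number of animals behind each library is not given in the labels. With 1 library per genotype no difference below has a replicate check, so that values are set side by side without a test, and they describe these libraries only.

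The respiratory chain of the inner mitochondrial membrane passes electrons from NADH (complex I) and succinate (complex II) through ubiquinone to complex III, cytochrome c and complex IV, where oxygen is reduced. Complexes I, III and IV pump protons in doing so, and ATP synthase uses the gradient. Nearly all subunits are encoded in the nucleus as housekeeping genes scattered over the genome, with promoters often bound by NRF1, GABP (an ETS factor) and YY1. Some complex IV subunits have tissue-restricted isoforms encoded by separate genes. Leukaemic stem and progenitor cells are known for their reliance on mitochondrial respiration.

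There were 37234 usable peaks of 37302 in the KO list and 34272 of 34313 in the f/f list. How many reads lie behind them is unknown. The median -log10 p was 9.41 in KO and 12.2 in f/f. Like the fold enrichment, -log10 p is the authors' value for each peak. It served to rank peaks within a list, while a minimum fold enrichment served as an alternative setting. Gata2 itself kept a gene-end peak in both lists, 946 bp wide in KO and 1185 bp in f/f, which does not check the deletion. Of 10 myeloid leukaemia markers, 6 had a gene-end peak in both lists and 4 (Hoxa9, Meis1, Mpo and Cd34) in f/f only. The stricter rule given below for calls in 1 list alone also requires the other list to be clear around both gene ends. By that rule only Cd34 of these 4 was called in f/f alone. At Hoxa9, Meis1 and Mpo a KO peak lay within the clearance. Markers of T cells, B cells, endothelium, stroma, epithelium and liver were mostly without a shared peak. Of 3 genes each, 1 had a peak in both for T cells (Cd3d), B cells (Cd79a), epithelium (Krt8) and liver (Alb), and 0 for endothelium and stroma. Epcam and Cdh1 (epithelium) and Pecam1 (endothelium) had a peak in f/f only, and Cxcl12 (stroma) in KO only. The stricter rule kept Epcam, Cdh1 and Cxcl12 but not Pecam1, which had a KO peak within the clearance. The part of such differences in the values below was not tested.

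The promoters of 6 genes are shown because they span the range found among the 80: Cox8a and Cox8b, a marked and an unmarked isoform of the same complex IV subunit; Sdhb and Ndufb8, marked in both lists; Ndufs8, marked in KO only; and Ndufa6, unmarked in both. Each runs 5′ to 3′ from 170 bases before to 30 bases after the RefSeq transcription start (GRCm38.p6, the build of mm10). Capitals mark matches on either strand to the motifs searched. For NRF1 these were GCGCATGC and, shorter and able to overlap it, TGCGCA. For GABP they were ACCGGAAG and, contained in it, CCGGAAG. The others were AAGATGGC for YY1, the E-box CACGTG, the GATA letters AGATAA, and the CCAAT box. A match is a match of letters, not a bound site.
Cox8a, chr19:7217587-7217786, minus strand: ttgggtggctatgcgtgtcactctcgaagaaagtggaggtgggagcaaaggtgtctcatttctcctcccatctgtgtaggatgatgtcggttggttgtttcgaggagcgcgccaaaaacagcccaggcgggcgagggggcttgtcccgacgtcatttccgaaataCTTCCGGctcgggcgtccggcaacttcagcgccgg
Cox8b, chr7:140900417-140900616, minus strand: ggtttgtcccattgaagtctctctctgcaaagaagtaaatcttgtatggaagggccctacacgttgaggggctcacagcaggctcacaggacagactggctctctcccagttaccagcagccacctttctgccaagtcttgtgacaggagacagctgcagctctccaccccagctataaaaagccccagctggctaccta
Sdhb, chr4:140961101-140961300, plus strand: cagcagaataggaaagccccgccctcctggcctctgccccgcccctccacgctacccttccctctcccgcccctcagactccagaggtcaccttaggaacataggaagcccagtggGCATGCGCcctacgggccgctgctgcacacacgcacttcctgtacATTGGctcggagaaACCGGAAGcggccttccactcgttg
Ndufb8, chr19:44555413-44555612, minus strand: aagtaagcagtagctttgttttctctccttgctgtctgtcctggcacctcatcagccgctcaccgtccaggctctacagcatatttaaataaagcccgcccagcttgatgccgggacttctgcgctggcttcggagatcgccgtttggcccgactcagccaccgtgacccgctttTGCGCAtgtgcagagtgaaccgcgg
Ndufs8, chr19:3912745-3912944, minus strand: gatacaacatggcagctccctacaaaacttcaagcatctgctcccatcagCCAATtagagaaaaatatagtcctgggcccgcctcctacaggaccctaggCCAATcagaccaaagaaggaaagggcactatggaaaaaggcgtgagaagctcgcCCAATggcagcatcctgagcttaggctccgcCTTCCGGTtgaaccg
Ndufa6, chr15:82354262-82354461, minus strand: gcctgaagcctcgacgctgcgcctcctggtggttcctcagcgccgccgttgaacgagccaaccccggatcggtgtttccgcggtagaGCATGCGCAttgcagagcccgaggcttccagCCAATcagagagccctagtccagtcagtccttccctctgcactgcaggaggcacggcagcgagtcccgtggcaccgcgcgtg

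Genes with a peak no more than 1000 bp from their start or end in the gene table were counted as marked. On that count 70 of the 80 genes were marked in KO (87.5%) and 66 in f/f (82.5%), against 51.8% and 51.9% of all protein-coding genes on these chromosomes. All 66 were marked in both lists (82.5%, against 49.1% of all genes). The remaining genes were 4 marked in KO only and 10 in neither list (12.5%, against 45.4% of all genes). Marked in both were 32 of 39 genes with complex I symbols, 4 of 4 of complex II, 8 of 8 of complex III, 10 of 17 of complex IV, 8 of 8 complex I assembly factors and 4 of 4 complex II assembly factors. Genes missing from both lists thus carried complex I and complex IV symbols only.

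**Figure D1:**
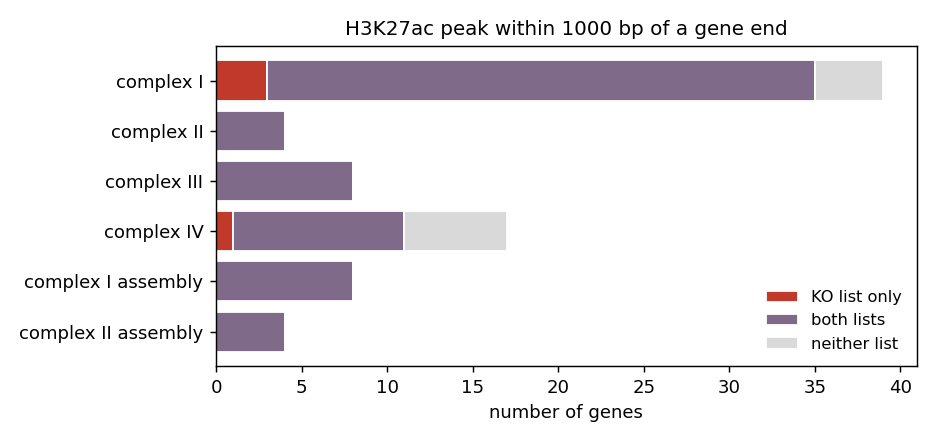
Number of genes (x axis) per complex (y axis) with an H3K27ac peak within 1000 bp of a gene end in the KO list only, in both lists or in neither list. Of 80 genes 66 were marked in both lists, 4 in the KO list only and none in the f/f list only.

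The gene table places the upstream end of Cox5a and of Cox7a2 over 1000 bp before the RefSeq start, so that both counted as unmarked although a peak sat on that start. At Cox5a, a structural subunit of complex IV, the peak on the start was 1465 bp wide in KO and 1450 bp in f/f. At Cox7a2, the widely expressed form of another small subunit, it was 1300 bp wide in KO and 1393 bp in f/f. With starts added to gene ends, 72 genes were marked in KO, 68 in f/f and 68 in both, and 8 were marked in neither. A RefSeq start was at hand for 64 of the 80 genes. Of these 64, 56 had a peak within 1000 bp of it in both lists (87.5%, against 50.8% of 16457 genes), 3 in KO only and 5 in neither.

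The 4 genes marked in KO only were Ndufa3, Ndufs8, Ndufv1 and Cox6b2, and all lay in chromosome starts where the f/f list had no peak at all. A chromosome start was called blank in a list when the other list had at least 10 peaks before its first peak. The first f/f peak lay at 10494779 on chromosome 7, with 98 KO peaks before it, and at 4194303 on chromosome 19, with 63 KO peaks before it. A call in 1 list alone also required the other list to be clear for 5000 bp around both gene ends. By that rule 4 of 80 genes were called in KO alone, against 1.65% of all genes, and 0 of 80 in f/f alone, against 1.88%. Outside the blank starts 0 of 76 were called in KO alone, against 1.22%, and 0 of 76 in f/f alone, against 1.85%. No respiratory chain gene lay in a start that was blank in the KO list.

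Ndufv1 and Ndufs8 encode core subunits of the electron path of complex I, the flavin subunit that takes electrons from NADH and an iron-sulphur subunit. The Ndufv1 peak in KO (chr19:4011789-4013326, 1538 bp, -log10 p 32.5) covered the transcription start, and the nearest f/f peak was 182 kb from the gene. The Ndufs8 peak in KO (chr19:3912307-3915243, 2937 bp, -log10 p 24.4) reached the end of Aldh3b1, and the nearest f/f peak was 282 kb away. Its promoter, printed above, holds a GABP match near the start. Ndufa3, an accessory subunit, had a narrow KO peak of high rank (chr7:3617267-3618069, 803 bp, fold 7.26, -log10 p 63.9), with 42 KO peaks and 0 f/f peaks within 500 kb of the gene. Cox6b2, a testis isoform, had a weaker KO peak beyond its 3′ end (chr7:4750962-4751713, 752 bp, -log10 p 7.27, below the KO median), with 37 KO and 0 f/f peaks within 500 kb. At these 4 genes the blank starts go with the library, and the absence of an f/f peak cannot be told apart from the blank stretch around them.

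The 8 genes without a peak at an end or a RefSeq start in either list were mostly isoform genes or copies. Ndufa4l2 is known as a hypoxia-induced relative of Ndufa4, Cox4i2 as a lung and hypoxia isoform, Cox8b as a heart and muscle isoform, and Cox7b2 and Cox8c as testis isoforms. Ndufb4b and Ndufb4c, named as copies of Ndufb4, lie within Dock8 and Mroh5. Cox7b2 stood apart in its surroundings, with 0 peaks of either list within 500 kb and the nearest KO peak 608 kb and the nearest f/f peak 612 kb away. Ndufa4l2 had a peak inside the gene in both lists, over 1000 bp from its ends, and Ndufb4b had the nearest KO peak 1.11 kb and the nearest f/f peak 1.01 kb away.

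Ndufa6 was the exception among them, an accessory complex I subunit of general expression with no peak in either list. The nearest KO peak lay 12.2 kb and the nearest f/f peak 24.4 kb from the gene, although 25 KO and 24 f/f peaks lay within 500 kb. Its promoter has a GC content of 65.0% and 27 CpG dinucleotides between 250 bases before and 50 bases after the start, values like those of marked genes, and it holds an NRF1 match. Read coverage of the site was not analysed here.

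Isoform genes of wide and of restricted expression were set side by side. Of 7 tissue-restricted isoform genes, 3 had a peak within 1000 bp of a gene end or RefSeq start in KO and 2 in f/f, and 4 had none in either. All 6 widely expressed counterparts had such a peak in both lists. The search was not equal for all: no RefSeq start was at hand for Ndufa4l2, Cox4i2 and Cox8c among the 4 without a peak, whereas Cox7a2 counted through its start alone. Ndufa4 had a peak of 1525 bp in KO (percentile 92.8 of that list by -log10 p) and 1433 bp in f/f (percentile 93.6), and Ndufa4l2 had none by this rule but a peak inside the gene in both lists. Cox4i1 had 1599 bp in KO (percentile 95.5) and 1658 bp in f/f (percentile 94.9), and the peaks nearest to Cox4i2 lay 1.72 kb away in KO and 1.24 kb away in f/f. Ndufa4l2 and Cox4i2 are known as the forms used under low oxygen.

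Where a restricted isoform did have a peak, it ranked lower than its partner. Cox6a2, a heart and muscle isoform, had a weak peak of 429 bp in KO (percentile 17.2) and 822 bp in f/f (percentile 10.9). Its partner Cox6a1 had 1313 bp in KO (percentile 88.2) and 1384 bp in f/f (percentile 87.5). Cox6b2, with a KO peak at percentile 41.0, likewise ranked below Cox6b1, which had 973 bp in KO (percentile 95.5) and 1145 bp in f/f (percentile 86.5). Cox7a1, the heart and muscle form, had 1040 bp in KO (percentile 66.7) and 1127 bp in f/f (percentile 54.7), the strongest call among the restricted genes. Its partner Cox7a2 ranked at percentile 89.7 in KO and 84.7 in f/f. Cox8a had 1759 bp in KO (percentile 90.4) and 1778 bp in f/f (percentile 93.0), against no peak for Cox8b and Cox8c. The promoter of Cox8b printed above has 1 CpG in 200 bases and that of Cox8a has 17.

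**Figure D2:**
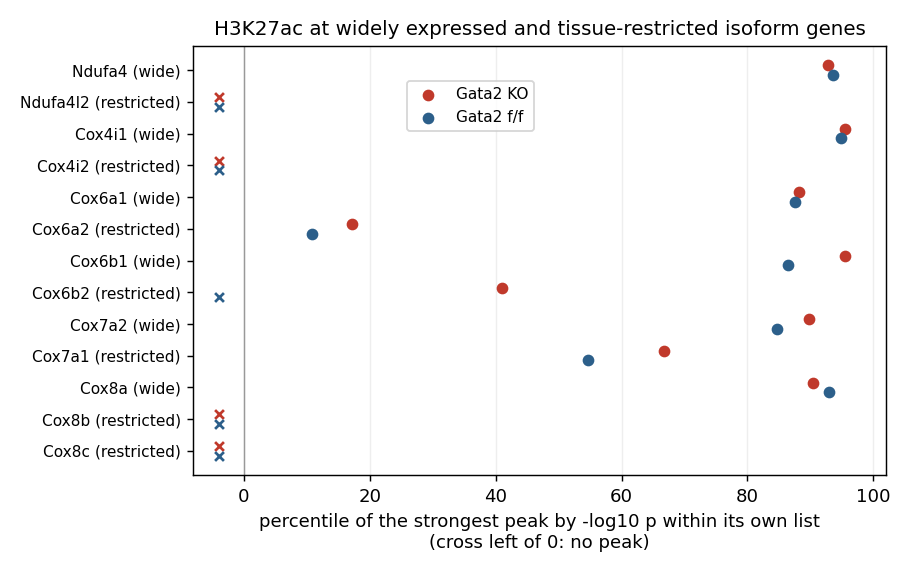
Percentile by -log10 p, within its own list, of the strongest peak within 1000 bp of a gene end or RefSeq start (x axis, percent) for 13 isoform genes (y axis), with KO in red and f/f in blue and crosses for no peak. The 6 widely expressed genes lie between percentiles 84.7 and 95.5, and the restricted genes at 66.7 or lower or without a peak.

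Peaks of the marked genes ranked high within both lists, as gene-end peaks did in general. Of the 70 genes marked in KO, 68 had their strongest gene-end peak above the list median by -log10 p (97.1%, against 89.6% of all marked genes) and 38 in the top 10% of that list (54.3%, against 35.2%). Of the 66 marked in f/f, 65 lay above the median (98.5%, against 88.7% of all marked genes) and 26 in the top 10% (39.4%, against 33.2%). The median percentile of the 66 genes marked in both was 90.8 in KO and 88.3 in f/f, against 85.8 and 85.3 for all 10140 genes marked in both. The strongest peaks stood at Uqcrfs1, the Rieske iron-sulphur protein of complex III (percentile 99.6 in KO and 99.2 in f/f), at Cox7c, a small complex IV subunit (99.6 in KO and 99.2 in f/f), and at Ndufb1, an accessory complex I subunit (99.4 in KO and 99.8 in f/f). The lowest in KO were Cox6a2 (17.2), Cox6b2 (41.0), Cox7a1 (66.7) and Ndufv3 (69.4).

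Widths differed little between the genotypes. The widest gene-end peak of the 66 genes marked in both had a median of 1367.5 bp in KO and 1400.5 bp in f/f. The median width ratio of KO over f/f was 0.972 (log2 -0.04, quartiles -0.13 and 0.06). For all 10140 genes marked in both it was 0.994 (log2 -0.01, quartiles -0.11 and 0.10). The peak was wider in KO for 25 of the 66 genes (37.9%, against 47.2% of all genes) and narrower for 41 (62.1%, against 52.5%). In 47 of the 66 (71.2%, against 62.1% of all genes) the width in KO was within 10% of that in f/f.

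Among the widest in KO were those of Ndufs8 (2937 bp, marked in KO only), Uqcrh (2385 bp), Ndufaf3 (2321 bp) and Ndufb6 (2186 bp). The Ndufb6 peak lay beyond the 3′ end of the gene and held ends of Smim27 and Topors. Among the widest in f/f were those of Ndufaf3 (4248 bp), Ndufa13 (3209 bp), Sdhb (2813 bp) and Ndufb10 (2430 bp). That of Sdhb lay inside the gene near its 3′ end, and that of Ndufb10 wholly beyond the 3′ end.

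By complex, the median log2 width ratio of KO over f/f was -0.04 for complex I, -0.11 for complex II, -0.01 for complex III, -0.08 for complex IV, 0.05 for complex I assembly factors and -0.10 for complex II assembly factors. With the strongest in place of the widest gene-end peak, the value for complex II turned to 0.04, since the f/f width of Sdhb then no longer came from a weak peak at its 3′ end (-log10 p 3.83). By symbol, complex I was wider in KO for 13 genes and narrower for 19, complex II for 1 and 3, complex III for 3 and 5, and complex IV for 2 and 8. Complex I assembly factors were wider in KO for 5 genes and narrower for 3, and complex II assembly factors for 1 and 3. These groups hold between 4 and 32 genes marked in both.

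**Figure D3:**
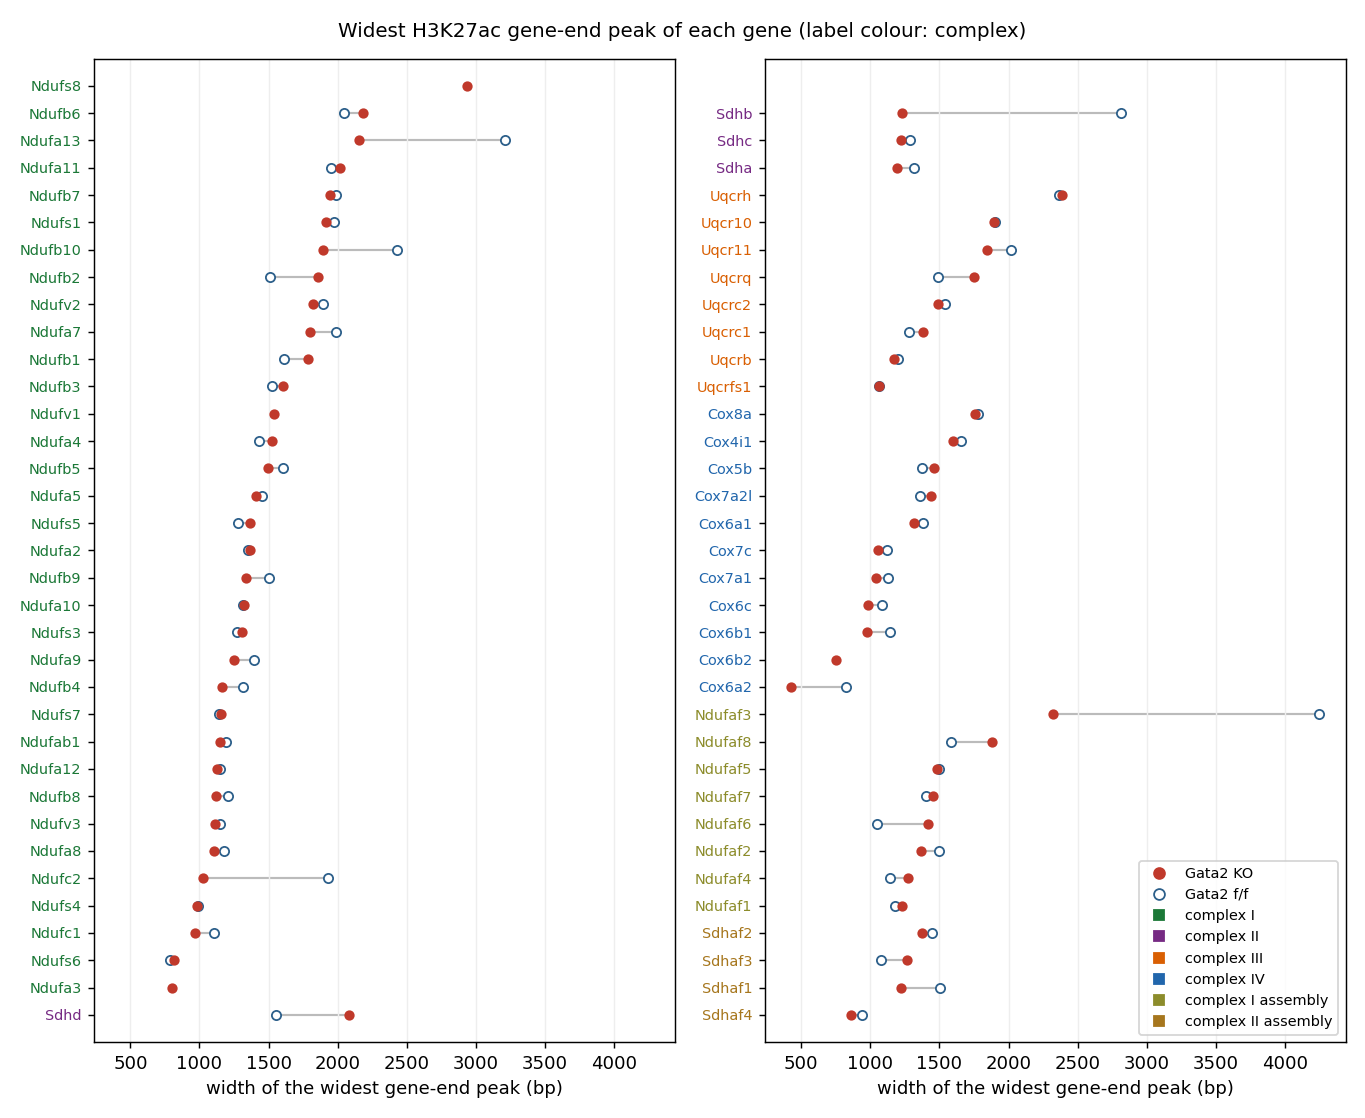
Width in bp (x axis) of the widest gene-end peak of 69 of the 70 marked genes (y axis, label colour giving the complex), with KO as red filled points and f/f as blue open points joined by a grey line. Most pairs lie close together, and the longest lines are those of Ndufaf3, Sdhb, Ndufa13 and Ndufc2, wider in f/f.

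No gene was 1.5 times wider in KO or more (0 of 66, against 5.31% of all genes), and 4 were at least 1.5 times narrower (6.06%, against 5.02%), a size chosen after the values were seen. Sdhb, the iron-sulphur subunit of complex II, had 1230 bp in KO and 2813 bp in f/f (ratio 0.437). The f/f value was a weak peak near the 3′ end (chr4:140975951-140978763, -log10 p 3.83), and at the transcription start the order turned, with 1230 bp in KO and 1107 bp in f/f. Ndufc2, an accessory complex I subunit, had 1026 bp in KO and 1928 bp in f/f (ratio 0.532), the upstream edge lying at -151 bp from the start in KO and at -1145 bp in f/f. Ndufaf3, a complex I assembly factor, had 2321 bp in KO and 4248 bp in f/f (ratio 0.546), again on the upstream side, where the peak runs into Dalrd3. Cox6a2 had 429 bp in KO and 822 bp in f/f (ratio 0.522), both weak calls. Ndufa13 (GRIM-19), a complex I subunit also described as an interferon and retinoid response gene, lay just inside that limit with 2153 bp in KO and 3209 bp in f/f (ratio 0.671).

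The genes with the largest ratios upward were Ndufaf6, a complex I assembly factor, and Sdhd, a membrane anchor of complex II. Ndufaf6 had 1414 bp in KO and 1047 bp in f/f (log2 0.43). Sdhd had 2085 bp in KO and 1552 bp in f/f (log2 0.43), reaching 1302 bp past the start in KO and 790 bp in f/f. Ndufb2 (1857 bp in KO and 1508 bp in f/f), Ndufaf8 (1878 and 1584 bp in KO and f/f) and Uqcrq (1753 and 1491 bp in KO and f/f) came next. For Ndufb2 these are peaks beyond the 3′ end, and the peak at its start had 1196 bp in KO and 1211 bp in f/f.

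**Figure D4:**
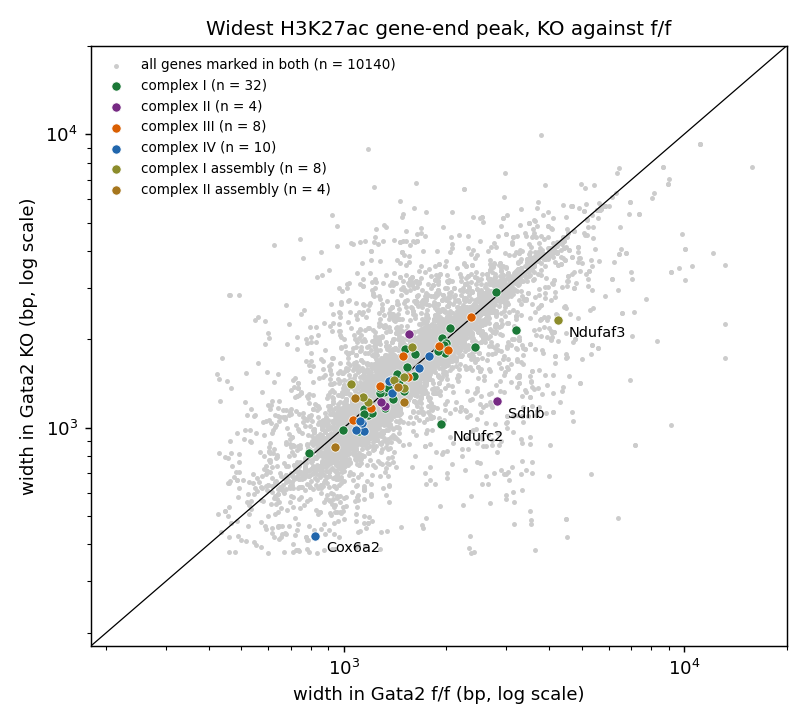
Width of the widest gene-end peak in KO (y axis, bp, log scale) against f/f (x axis, bp, log scale) for all 10140 genes marked in both lists (grey) and the 66 respiratory chain genes (coloured by complex), with the line of equal width. Most coloured points follow the line, and Sdhb, Ndufc2, Ndufaf3 and Cox6a2 lie below it.

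Several subunits that carry the flavin, iron-sulphur and haem centres, or partner those that do, had similar widths in KO and f/f, but Sdhd, described above, did not. Sdhb differed in its widest gene-end peak, a weak one at the 3′ end in f/f, and at its start had 1230 bp in KO and 1107 bp in f/f. In complex I, Ndufs1 had 1917 bp in KO and 1972 bp in f/f. Ndufs3 had 1310 bp in KO and 1274 bp in f/f, Ndufs7 had 1159 and 1142 bp in KO and f/f, and Ndufv2 had 1820 and 1897 bp in KO and f/f. These 4 had log2 ratios between -0.06 and 0.04. For Ndufv2 the widest peak lay beyond the 3′ end, and at its start the order turned, with 1485 bp in KO and 1447 bp in f/f (log2 0.04). In complex II, Sdha, the flavoprotein, had 1190 bp in KO and 1317 bp in f/f, and Sdhc 1224 bp in KO and 1284 bp in f/f. In complex III, Uqcrfs1 had 1062 bp in KO and 1063 bp in f/f, and the core proteins Uqcrc1 and Uqcrc2 had 1383 and 1493 bp in KO against 1280 and 1540 bp in f/f. In complex IV, Cox5b had 1458 bp in KO and 1374 bp in f/f.

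At the RefSeq start the peaks lay over the start and ran farther into the gene than upstream. Of the 56 genes with such a peak in both lists, it covered the start in 55 in KO and 56 in f/f. The exception was Ndufb10, an accessory complex I subunit, whose KO peak began 2 bp past the start and was 695 bp wide, against 1240 bp in f/f. With positions counted from the start, the median edges were at -547.5 and 741 bp in KO and at -573 and 782 bp in f/f. It reached farther downstream than upstream in 38 of 56 genes in KO and in 37 in f/f. Edges moved by 100 bp or less between the genotypes in 38 of 56 genes upstream and in 49 downstream. Widths at the start were larger in KO for 22 genes and smaller for 34, with a median log2 ratio of -0.02. The counts of this paragraph were not made over all genes. Whether this shape is particular to the set was not tested.

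**Figure D5:**
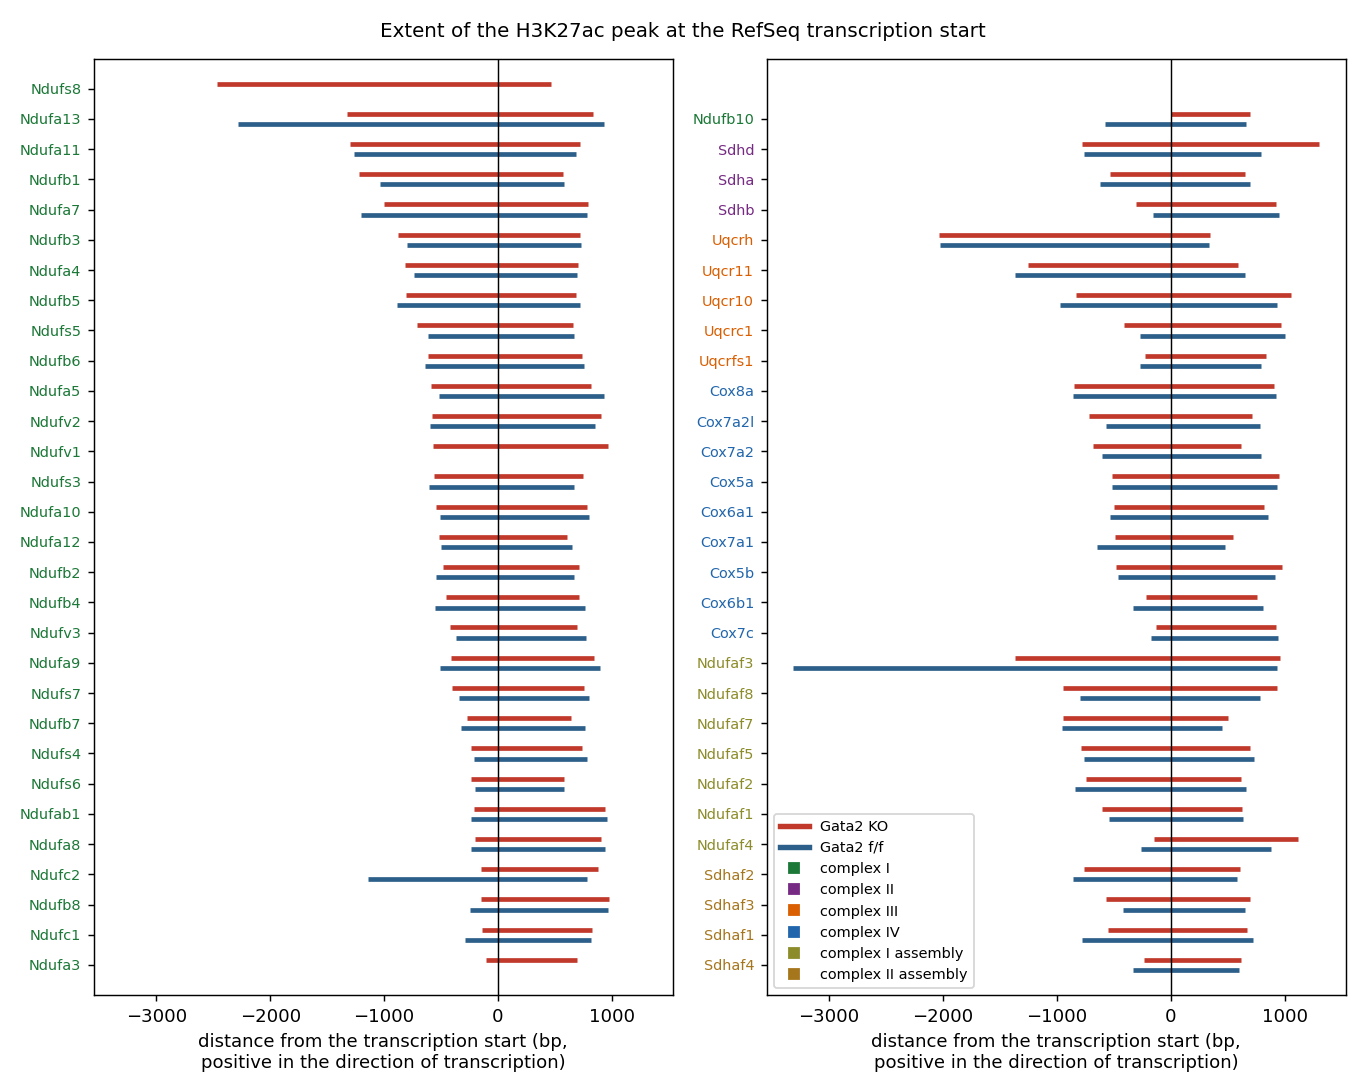
Extent of the H3K27ac peak at the RefSeq transcription start (x axis, bp from the start, positive along transcription) for 59 genes (y axis, label colour giving the complex), with KO in red above f/f in blue. Peaks cover the start, with a median reach of 741 bp downstream in KO and 782 bp in f/f, and Ndufa3, Ndufs8 and Ndufv1 have a KO bar only.

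Many of these peaks were shared with a neighbouring gene. In 31 of the 66 genes marked in both (47.0%), the strongest gene-end peak held an end of another protein-coding gene in KO, and the same 31 genes had the same neighbours in f/f. Over all 10140 genes marked in both, this held for 25.6% in KO and 26.1% in f/f. Some neighbours are themselves mitochondrial genes: Sdhd with Timm8b (protein import), Ndufb5 with Mrpl47 and Ndufs6 with Mrpl36 (mitochondrial ribosome). Others serve translation or RNA processing: Ndufa7 with Rps28, Ndufs1 with Eef1b2, Ndufb1 with Cpsf2 and Sdhaf2 with Cpsf7. Peaks that held a neighbour's end had a median of 1525 bp in KO and 1505 bp in f/f, and the other 35 had 1224 bp in KO and 1192 bp in f/f. A wider peak can hold a neighbour's end more easily, so the grouping itself depends on width. These medians were not taken over all genes. A peak between divergent genes cannot be given to either of them.

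Almost every peak at the ends of these genes was found in both lists, as were most gene-end peaks in general. Of 76 distinct KO peaks, 72 (94.7%) overlapped an f/f peak by at least 1 bp, against 93.0% of the gene-end peaks of all genes. Of 75 f/f peaks, 73 (97.3%) overlapped a KO peak, against 93.7%. The 4 unshared KO peaks are those in the blank starts, and outside these all 72 KO peaks were shared. The share outside blank starts was not counted for all genes. The 2 unshared f/f peaks were weak calls, beyond the 3′ end of Ndufa8 (chr2:36035330-36036097, -log10 p 6.26) and over that of Ndufv3 (chr17:31530997-31532127, -log10 p 3.76). Both genes had a shared peak at the start.

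Promoter sequences, from 250 bases before to 50 bases after the start, were at hand for 64 of the 80 genes and were searched on both strands. NRF1 letters (GCGCATGC) were found in 9 (14.1%), against 3.66% of all 16457 promoters and 5.94% of the 8352 promoters with a peak at the start in both lists. The shorter TGCGCA, which overlaps many of these, was found in 18 (28.1%, against 10.1% and 15.8%). GABP letters (CCGGAAG) were found in 16 of the 64 (against 12.3% and 20.7%), with ACCGGAAG, which contains them, in 6 (9.38%, against 3.17% and 5.42%). YY1 letters (AAGATGGC) stood in 8 (12.5%, against 3.21% and 4.92%). The E-box stood in 2 (3.12%, against 7.97% and 10.7%), GATA letters (AGATAA) in 4 (6.25%, against 9.85% and 5.76%) and CCAAT in 24 (37.5%, against 39.1% and 38.9%). The 4 genes with GATA letters were Ndufa12, Ndufc2, Cox7a1 and Cox7c, with log2 width ratios of -0.03, -0.91, -0.12 and -0.09.

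Composition went with the presence of a peak at the start, but not at Ndufa6. The 56 promoters with a peak at the start in both lists had a median GC content of 59.2% and 20 CpG (7 to 44) in the same stretch. The 5 without a peak at the start in either list had 48.7% and 10 CpG (2 to 27, the highest at Ndufa6). Among these 5 is Cox6b2, which had a KO peak beyond its 3′ end. Over all genes the same medians were 61.3% and 22 CpG with a peak and 49.7% and 4 CpG without.

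Most other genes of the pathway were also marked in both lists, against 49.1% of all genes. Of 17 ATP synthase genes (symbols starting Atp5), 16 were marked in both lists and Atp5g1 in neither, with 5 wider and 11 narrower in KO and a median log2 width ratio of -0.03. Atp5d, the delta subunit, stood apart with 494 bp in KO and 6414 bp in f/f (log2 -3.70). Within its own list, its strongest call ranked at percentile 40.3 in KO (-log10 p 7.14) and at percentile 76.4 in f/f (-log10 p 39.4). Atp5b, the catalytic beta subunit, went the other way with 2124 bp in KO and 1236 bp in f/f (log2 0.78). All 33 genes of other assembly factors and electron carriers were marked in both, among them the cytochrome genes Cyc1 (1216 bp in KO and 1218 bp in f/f) and Cycs (1654 bp in KO and 1703 bp in f/f). Their median log2 width ratio was -0.04, with 13 wider and 20 narrower in KO. Single genes differed more. Cox14 had 2915 bp in KO and 990 bp in f/f (log2 1.56), and Uqcc3 had 828 bp in KO and 2823 bp in f/f (log2 -1.77).

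Of 13 regulators of these genes, 12 were marked in both lists. Nrf1 had 1809 bp in KO and 1793 bp in f/f, and the GABP alpha gene Gabpa, which shares its peak with Atp5j, had 1905 bp in KO and 1895 bp in f/f. Yy1 had 3669 bp in KO and 6210 bp in f/f (log2 -0.76), and Esrra, an orphan receptor of the PGC-1 pathway, 3334 bp in KO and 2630 bp in f/f (log2 0.34). Gabpb1, the GABP beta gene, was marked in f/f alone by a weak peak (2275 bp, -log10 p 5.45, percentile 21.4 of the f/f list).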

How the data were processed

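H3K27ac ChIP-seq peak lists of 1 Gata2 KO and 1 Gata2 f/f library were used, grouped by their labelled genotype. BWA, SAMtools, MACS2 and the build mm10 are named, without versions, in the submitters' processing notes; the lists have the broad peak format. Options, the control and the depth of sequencing are not stated there, and read numbers, which can alter calls and widths, are unknown. The authors deposited 3 values used here per peak: fold enrichment (a ratio), -log10 of the p-value and -log10 of the q-value. The deposited score was not used.

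Gene ends came from a RefSeq table of GRCm38.p6 and transcription starts and promoters from RefSeq sequences of that build. Width was that of the widest peak within 1000 bp of a gene end. Python 3.11.15 with pandas 2.3.3 was used; bedtools 2.31.1 gave the same numbers of marked genes, and the counting was tested on simulated data. The members and lists were chosen with earlier results of these data known. All members could be named, in full those in 1 list only or neither, those with extreme widths or ratios, redox subunits and isoform pairs; neighbours, motif-bearing genes, Ndufb10 and the named genes outside the set were chosen after their values were seen. No test was run, with 1 library per genotype. Alternatives were peak thresholds, list lengths, windows, member sets, width and overlap rules. The values of 1 member are not reported here, but it is included in all counts and medians.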

Additional observations from a re-analysis of the deposited data

How the results depend on the processing

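Of 88 values of 10 results recomputed under 12 settings, 86 stayed within 1.5 times the reported count or within the spread of the median. Both others concern the 4 genes marked in KO alone: 2 remained with peaks of at least 3-fold enrichment and 0 without the blank chromosome starts. Some of the 86 could not have moved. The f/f list holds 34272 peaks and stayed whole when list lengths were made equal. Leaving out blank starts could not alter f/f counts or widths, since the 4 genes there have no f/f peak. The spread of the median was taken over genes, not over replicates. The settings were a minimum -log10 q of 5, a minimum fold enrichment of 3, the strongest 34272 peaks of each list, windows of 500 and 2000 bp, sets without blank starts or assembly factors, a 1000 bp clearance, summed widths, a 50% overlap, RefSeq starts alone and, added after the values were seen, the strongest gene-end peak. Genes marked in both ranged from 54 to 68 and the median log2 width ratio from -0.04 to -0.02. The lowest count, 54, is of the 68 genes left without assembly factors, and the next, 56, of the 64 with a RefSeq start. No paired analysis was possible because each genotype has 1 library, which also means that no replicate could be left out. Depth is unknown, so that an unmarked gene is one without a call.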
